A study of Mus musculus with 10 samples.

Results

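A set of 40 genes known to be induced by interferons were followed in mouse neuroretina by bulk RNA sequencing. They were chosen by name, as the rows of the deposited count table whose Ensembl mouse ID pairs with a listed symbol; all 40 were found among the 57186 genes of the table. The gene listed as Rigi appears under its older symbol Ddx58 in the table of names. All libraries came from female C57BL6/JRj mice; the labels give no age, genotype change or transgene. Injections went into the vitreous body of the eye, and the neuroretina was taken 14 days later. The CNP group (5 libraries, numbered 4, 8, 12, 16 and 20) received 1 µL of graphitic carbon nitride nanoparticles (hg-C3N4) at 1 mg/mL in phosphate-buffered saline. The PBS group (5 libraries, numbered 2, 6, 10, 14 and 18) received the saline alone, so both groups share the needle injury and no uninjected eye was analysed here. For CNP the design text counts 5 mice, and for PBS 5 eyes. Nothing further says that each library is a separate animal, so the p-values measure the spread between these libraries, which may be technical.

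Interferons are secreted cytokines that signal through cell-surface receptors and Janus kinases to the STAT transcription factors. Type I interferon assembles a complex containing STAT2 and IRF9 that binds the interferon-stimulated response element (ISRE), while interferon gamma acts mainly through the gamma-activated site (GAS). The induced genes include sensors of viral RNA, blockers of viral entry and replication, and the factors that amplify or end the response. In the retina such genes are known to be raised by infection, inflammation and degeneration, in microglia, Müller glia and vascular cells.

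Because the set is defined by its response to interferon, the response elements in its promoters are shown first. The RefSeq promoter table (GRCm38.p6) held 32 of the 40 genes, and the 250 bases before each start were searched on both strands for exact letters. The ISRE core, spelled GAAA, any 2 bases and GAAA again, was present in 15 of the 32 genes (46.9%) and in 936 of 27025 genes of the table (3.46%). The GAS letters, TTCNNNGAA, which read the same on both strands, were present in 9 of the 32 (28.1%) and in 8.13% of all genes. Dhx58, Ifi27, Iigp1, Mx1, Parp14, Parp9, Usp18 and Zbp1 were not matched. A match is a description of letters and not a measured binding site. The windows below belong to the genes whose values are given in full and that hold the ISRE core; where a gene had several matches, the one nearest the start is shown. Each is written 5′ to 3′ on the gene's own strand, with the matched letters, or their reverse complement, in capitals.
Stat2 (chr10:128270256-128270305, plus strand): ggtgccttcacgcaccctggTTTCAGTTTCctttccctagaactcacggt
Ifit1 (chr19:34640784-34640833, plus strand): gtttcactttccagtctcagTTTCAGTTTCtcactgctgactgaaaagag
Ifit3 (chr19:34583387-34583436, plus strand): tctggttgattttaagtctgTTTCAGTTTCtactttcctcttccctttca
Ifit3b (chr19:34607783-34607832, plus strand): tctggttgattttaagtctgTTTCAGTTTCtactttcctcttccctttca
Bst2 (chr8:71537567-71537616, minus strand): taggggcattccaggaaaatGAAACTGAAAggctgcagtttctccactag
Ifitm2 (chr7:140955978-140956027, minus strand): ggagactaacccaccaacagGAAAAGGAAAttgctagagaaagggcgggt
Gbp7 (chr3:142530263-142530312, plus strand): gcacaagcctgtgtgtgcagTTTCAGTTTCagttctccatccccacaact
Igtp (chr11:58199502-58199551, plus strand): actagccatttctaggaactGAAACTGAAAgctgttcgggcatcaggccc
Isg15 (chr4:156200855-156200904, minus strand): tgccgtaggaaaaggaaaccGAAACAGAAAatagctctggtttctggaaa
The windows of Ifit3 and Ifit3b, neighbouring and closely similar genes, are the same letter for letter. With the treatment of reads that match both not given in the sources used here, the split of counts between them is uncertain. The split may also be uncertain for Ifitm2 with Ifitm3, for Igtp with Irgm2 and for Oas1a with its copies. The transcripts of these genes were not compared here. In Igtp the last base of a GAS match lies 37 bases before the start and the first base of the ISRE core 34, and in Bst2 a GAS match (136 to 128) shares bases with a further ISRE match (130 to 121).

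Library totals ran from 3328518 to 5428697 counts, and the 40 genes together held 756 to 1894 counts per library. The rod marker Gnat1, which encodes the transducin of rod photoreceptors, was present at 4708 to 8807 CPM, as a check of the labelled tissue. CPM is each gene's count per 1e6 counts of the library, scaled here by TMM (trimmed mean of M-values), which matches the libraries on the bulk of their genes. In bulk tissue fewer cells of a type and less RNA per cell cannot be told apart. The libraries numbered above 10 stood apart from those numbered up to 10 over much of the transcriptome: 31% of 11499 tested genes passed an adjusted p of 0.05 between these sets (edgeR, with treatment in the same fit). This division was chosen with earlier results of these data known, so its p-values describe the split and are no independent test of it. The labels do not say what the number marks. Depth differed too, with totals of 4325794 to 5428697 counts up to 10 and 3328518 to 4337612 above 10. The part of depth in the differences between the sets was not tested. Since 3 PBS and 2 CNP libraries carry numbers up to 10 and 2 PBS and 3 CNP libraries carry higher ones, values within each set are given below.

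Most of the set averaged under 10 CPM in the retina of these animals. Of the 40 genes, 34 had a count in every library, 5 (Zbp1, Oas1a, Rsad2, Ifi44 and Parp14) in some libraries, and Mx1 in none. The low-count filter passed 27 genes, and 13 were too scarce to test. Of the 57186 genes in the whole table, 22756 had a count in any library and 11499 passed the filter. Only 1 tested gene, Ifit3, averaged at least 20 CPM, and 11 averaged at least 10. Set against exon length (from GENCODE M21), the highest levels were those of Ifitm3 at 25.3 ± 5.76 CPM per kb, Ifitm2 at 24.1 ± 5.70 and Ifit3 at 21.3 ± 5.73 (SD, n = 10 libraries). These 3 neighbours differed by less than their spread over libraries. Bst2 and Ifi27 followed at 12.5 ± 2.62 and 12.5 ± 2.46 CPM per kb, and the next tier held Ifi35 (6.47 ± 1.24), Igtp (6.13 ± 2.20), Ifit3b (5.82 ± 1.59) and Isg15 (5.80 ± 1.82), again within their spread. Irf7 stood at 2.81 ± 0.498 CPM per kb and Samhd1 at 1.98 ± 0.280. The RNA helicases were far down this order, with Ifih1 at 0.340 ± 0.0652 and Rigi at 0.168 ± 0.0570 CPM per kb. The cDNA was made in full length, but how evenly the reads cover it was not examined, so the division by length is itself uncertain.

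**Figure D1:**
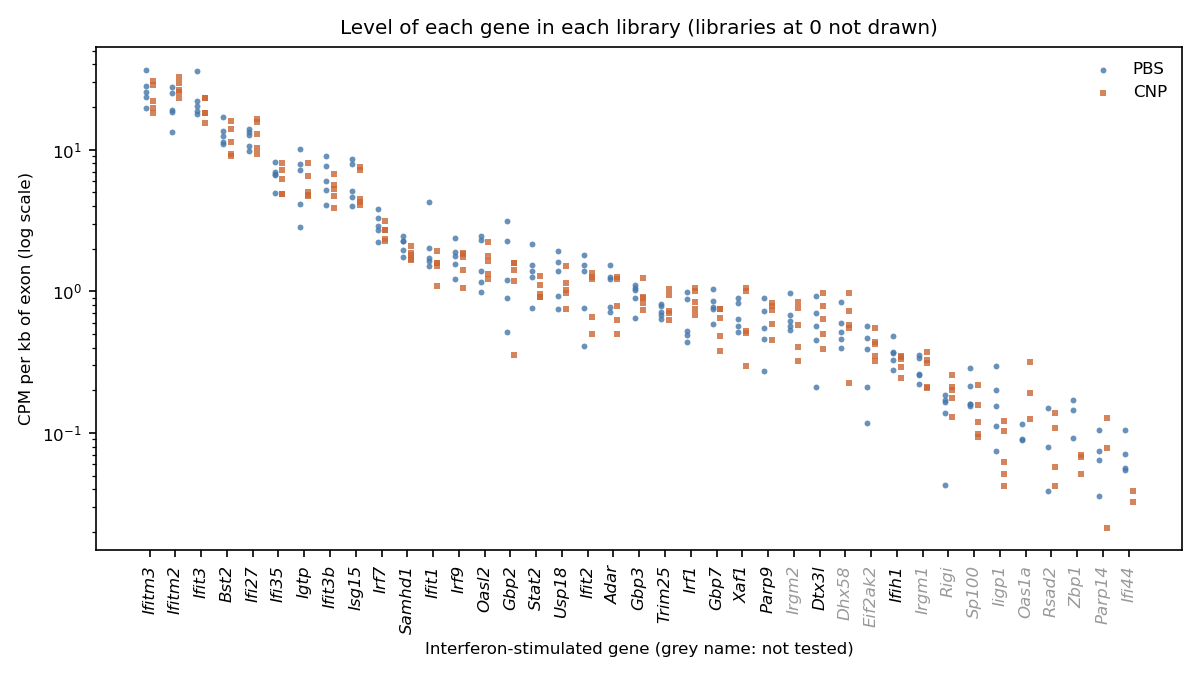
Level of each gene with a count, in CPM per kb of exon (log axis), in 5 PBS (circles) and 5 CNP (squares) libraries, ordered by the mean. Ifitm3, Ifitm2 and Ifit3 lead at 25.3, 24.1 and 21.3 CPM per kb, and the genes named in grey were not tested.

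The comparison the design implies is CNP against PBS, that is, whether the particles altered the retinal transcriptome beyond the injection itself. None of the 27 tested interferon-stimulated genes passed with edgeR's quasi-likelihood test at an adjusted p under 0.05 over all 11499 genes, where 0% of genes passed (smallest adjusted p = 0.9999). DESeq2 and limma-voom also called 0. At an unadjusted p under 0.05 there was 1 gene, Ifitm2, by each of the 3 tools; that is 3.70% of the 27, beside 1.19% of all genes. Without the low-count filter there were 3 of 39 by edgeR, beside 1.85% of all genes. The groups did not separate fully for any of the 40 genes (0 of 27 tested, beside 0.287% of all tested genes). Fold changes below 0 were found for 20 of 27 genes (74.1%), beside 51.2% of all genes, with a median log2 fold change of -0.17, beside -0.0035 for all. Within the lower-numbered set the median difference of log2 CPM was -0.14, with 21 of 27 genes lower in CNP, beside 48.5% of all genes. Within the set above 10 it was 0.02, with 13 of 27 lower, beside 48.5% of all genes again. Whether the sets differ in this was not tested. With library number as a term in the fit, 18 of 27 genes were below 0 beside 48.8% of all genes, and the median was -0.14. For 23 of the 27 genes the 95% interval left no room for a change of 2-fold, up or down, and the same held for 94.2% of all genes. The exceptions were Stat2, Ifit1, Ifit2 and Gbp2. A change of 1.5-fold was outside the interval for Irf7, Samhd1, Ifi35, Ifi27, Bst2, Ifitm3, Gbp3 and Trim25.

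**Figure D2:**
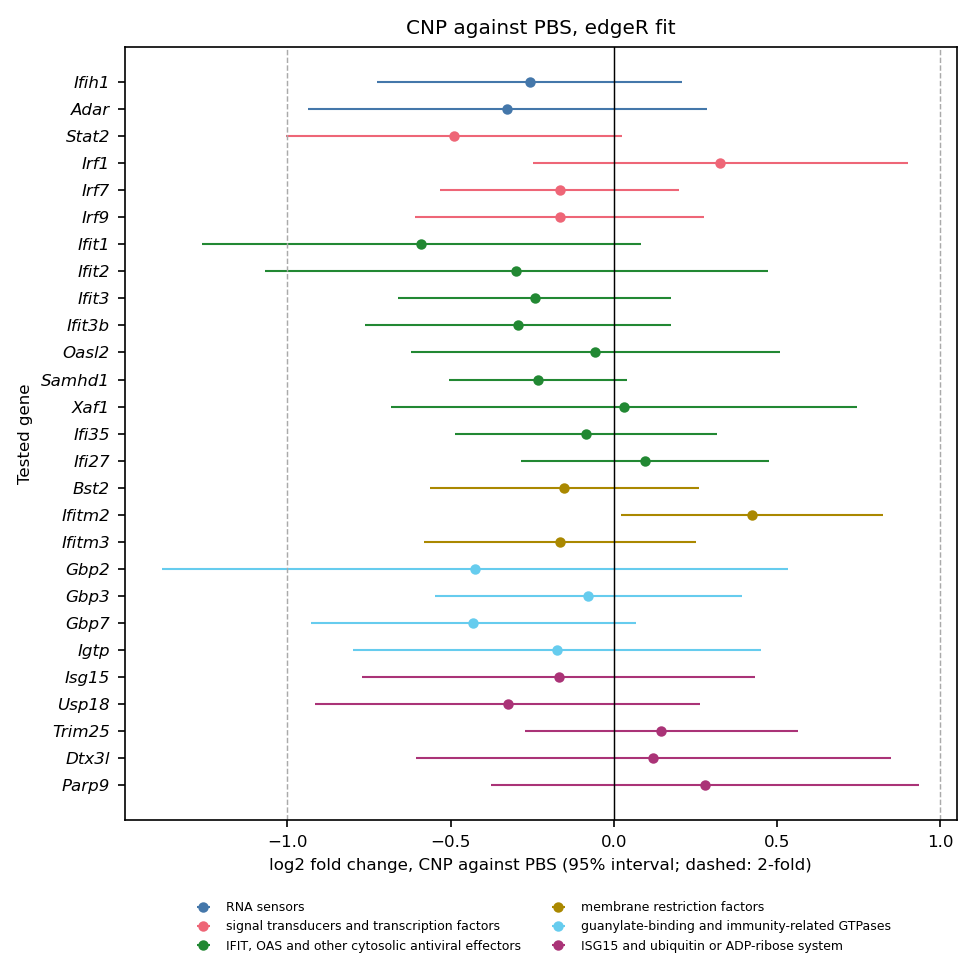
Log2 fold change of each of the 27 tested genes, CNP against PBS, with its 95% interval from the edgeR fit, coloured by role; dashed lines mark 2-fold. Ifitm2 at 0.42 is the only gene whose interval leaves out 0 before adjustment, and Ifit1 at -0.59 has the lowest value.

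Below, values are CPM in the order of library number, 2, 6, 10, 14 and 18 for PBS and 4, 8, 12, 16 and 20 for CNP. Errors of group means are SD over 5 libraries, and adjusted p is 0.9999 for every gene of the set in this comparison. Of the signal transducers and transcription factors of the set, 4 of 5 could be tested, and 0 passed. Stat2 (ENSMUSG00000040033), the STAT of the type I complex, measured 12.8, 9.13, 8.25, 4.51 and 7.45 CPM in PBS and 5.64, 7.60, 6.59, 5.45 and 5.44 in CNP. PBS 2 was highest and PBS 14 lowest of all 10, so the CNP values lay inside the PBS range. The means were 8.42 ± 2.98 and 6.15 ± 0.942 CPM, and the fold change on the log2 scale was -0.49 (95% interval -1.004 to 0.03). With 1 library left out the fold change ran from -0.63 (without PBS 14) to -0.28 (without PBS 2). Within the libraries numbered above 10 the log2 difference was 0.00 to 2 decimals, against -0.56 among the others.

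Irf9 (ENSMUSG00000002325), the DNA-binding partner of STAT2, stood at 12.9, 10.2, 9.56, 6.61 and 8.42 CPM in PBS. In CNP it stood at 9.46, 10.0, 5.69, 9.95 and 7.67 CPM. The ranges overlapped, with the lowest value in CNP 12 and a log2 fold change of -0.17 (SE 0.20). That fold change was -0.027 without PBS 2 and -0.26 without PBS 14. Irf7 (ENSMUSG00000025498), which amplifies type I interferon production and is itself induced by it, measured 8.39, 10.2, 12.4, 14.4 and 11.0 CPM in PBS and 10.2, 8.60, 10.2, 11.9 and 8.91 in CNP. Its means of 11.3 ± 2.28 and 9.95 ± 1.29 CPM gave -0.17 with an interval of -0.53 to 0.20. Irf1, a factor induced strongly by interferon gamma, had a positive value of 0.33 (SE 0.26), with 2.65 ± 1.01 CPM in PBS and 3.44 ± 0.631 in CNP. Its difference was positive in both number sets, at 0.43 and 0.48. Sp100, a protein of nuclear bodies, was not tested, with 33 counts in PBS and 24 in CNP.

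Among sensors of foreign or misplaced RNA, 2 of 6 genes could be tested. Ifih1, which encodes the helicase MDA5, had 2.99 ± 0.626 CPM in PBS and 2.55 ± 0.355 in CNP (log2 fold change -0.26, SE 0.22). Adar, the enzyme that edits adenosines in double-stranded RNA and so keeps MDA5 quiet, had 8.93 ± 2.79 and 7.15 ± 2.82 CPM (-0.33, SE 0.28). The rest had few counts: Rigi 24 in PBS and 30 in CNP, Dhx58 (LGP2) 44 and 46, the kinase gene Eif2ak2 (PKR) 42 and 48, and Zbp1, a sensor of Z-form nucleic acid, 6 and 3.

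The IFIT proteins bind viral RNA and are among the strongest responders to type I interferon, and 1 saline library stood out among their values. Ifit3 (ENSMUSG00000074896) measured 38.4, 62.7, 35.6, 31.3 and 32.7 CPM in PBS and 40.7, 26.8, 40.2, 31.8 and 31.7 in CNP. PBS 6 stood above all others, and the remaining 9 libraries of both groups lay between 26.8 and 40.7 CPM. The log2 fold change was -0.24 (SE 0.19) with all libraries, -0.02 without PBS 6 and -0.32 without PBS 14. Ifit1 (ENSMUSG00000034459) showed the same library still more clearly, at 4.03, 11.4, 4.34, 5.41 and 4.53 CPM in PBS and 2.91, 4.20, 5.09, 4.03 and 4.21 in CNP. Its log2 fold change was -0.59 (95% interval -1.26 to 0.08), with -0.17 without PBS 6 and -0.72 without PBS 2.

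Ifit3b (ENSMUSG00000062488) measured 15.3, 17.9, 10.4, 8.12 and 11.98 CPM in PBS and 11.3, 9.40, 7.79, 13.5 and 10.6 in CNP. PBS 6 was again highest and the groups overlapped. The fold change was -0.29 (SE 0.22), with -0.13 without PBS 6 and -0.41 without PBS 14. Ifit2 had 4.63 ± 2.25 and 3.93 ± 1.52 CPM (-0.30, SE 0.36), with -0.10 without PBS 6 and -0.47 without PBS 18. Across the 27 tested genes, PBS 6 held the highest value for 11 (40.7%), while it was the highest library for 12.1% of all tested genes. Its summed level of the 40 genes was 326 CPM and that of the others 213 to 296. Microglia markers summed to 236 CPM in PBS 6, within the 183 to 301 CPM of the 10 libraries, and all of the 12 markers had counts. Markers of other leukocytes summed to at most 2 CPM in any library, with Cd3e and Ms4a1 at 0 counts in all 10. Their part in these values was not tested.

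The groups overlapped for the further cytosolic effectors, and none of these genes passed. Samhd1 (ENSMUSG00000027639), which depletes the nucleotide pool that viruses need, measured 20.8, 22.6, 18.03, 15.9 and 20.7 CPM in PBS and 19.3, 17.0, 15.3, 15.4 and 16.6 in CNP. CNP 12 and CNP 16 lay below every PBS library, and the other CNP libraries lay inside the PBS range. The log2 fold change was -0.23 (95% interval -0.51 to 0.04), and the difference was -0.17 and -0.20 in the sets numbered up to 10 and above. Ifi27 (ENSMUSG00000064215) measured 19.5, 14.5, 18.7, 20.4 and 15.5 CPM in PBS and 24.0, 15.002, 23.1, 19.0 and 13.6 in CNP. Both the highest and the lowest library were CNP ones, and the fold change was 0.10 (SE 0.18).

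Oasl2, an oligoadenylate synthetase relative, had 10.6 ± 4.27 CPM in PBS and 10.4 ± 2.55 in CNP (-0.06, SE 0.26). Ifi35 had -0.08 (SE 0.19), and Xaf1, an antagonist of an inhibitor of apoptosis, 0.03 (SE 0.33). Mx1 (ENSMUSG00000000386), the antiviral GTPase that is defective in C57BL/6 and most inbred laboratory mice, had 0 counts in every library, a result that leaves room for at most 0.0677 CPM (3 counts of the pooled total of 44317412, counting error only). Oas1a had 3 counts in PBS and 5 in CNP, Rsad2 (viperin) 5 and 7, and Ifi44 8 and 2.

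Among the 3 membrane factors, Ifitm2 had the only value above 0. The IFITM proteins hinder fusion of enveloped viruses with cell membranes. Ifitm2 (ENSMUSG00000060591) measured 12.4, 8.79, 12.2, 16.5 and 18.1 CPM in PBS and 17.3, 15.2, 21.3, 16.8 and 19.3 in CNP. All 5 CNP libraries exceeded the PBS mean of 13.6 ± 3.73 CPM, and PBS 14 and PBS 18 lay inside the CNP range. The CNP mean was 17.98 ± 2.35 CPM, which gives 0.42 on the log2 scale (95% interval 0.02 to 0.83; edgeR adjusted p = 0.9999). The difference was 0.54 in the lower-numbered set and 0.13 in the set above 10.

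Ifitm3 (ENSMUSG00000025492) measured 24.8, 16.02, 13.5, 17.4 and 19.1 CPM in PBS and 20.7, 13.4, 14.98, 19.4 and 12.4 in CNP. CNP 8 and CNP 20 lay below every PBS library, and PBS 2 lay above every CNP library. The other values lay in the range the groups share. The fold change was -0.16 (SE 0.19), with -0.015 without PBS 2 and -0.27 without CNP 4. Bst2 (ENSMUSG00000046718), or tetherin, which holds budding virus at the cell surface, measured 15.3, 12.2, 9.99, 10.2 and 11.3 CPM in PBS and 12.7, 8.40, 14.4, 10.2 and 8.17 in CNP. Its fold change was -0.15 (SE 0.19), with an interval of -0.56 to 0.26. It was -0.035 without PBS 2 and -0.26 without CNP 12.

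The guanylate-binding proteins and immunity-related GTPases, which attack the vacuoles of intracellular microbes and answer mainly to interferon gamma, had 4 of 7 members tested, each with a value below 0 and none past the test. Gbp7 (ENSMUSG00000040253) measured 4.36, 4.82, 5.86, 3.31 and 4.21 CPM in PBS and 3.64, 4.20, 4.19, 2.13 and 2.72 in CNP. The ranges met between 3.31 and 4.20 CPM, and the fold change was -0.43 (95% interval -0.93 to 0.07), with a difference of -0.32 in each number set. Igtp (ENSMUSG00000078853) measured 15.9, 20.5, 14.6, 5.71 and 8.42 CPM in PBS and 16.2, 13.2, 9.59, 9.72 and 10.1 in CNP. Here the libraries divided by number and not by treatment. The fold change of -0.18 (SE 0.29) became 0.04 with library number in the fit, 0.05 without PBS 6 and -0.35 without PBS 14.

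Gbp2 had 4.04 ± 2.72 CPM in PBS and 3.09 ± 1.29 in CNP, with -0.42 (SE 0.44). Its fold change was -0.01 without PBS 6 and -0.64 without PBS 10. Gbp3 had -0.08 (SE 0.22). Irgm1 had 39 counts in PBS and 38 in CNP, Irgm2 59 and 50, and Iigp1 24 and 10.

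ISG15 is a ubiquitin-like protein joined to newly made proteins during the response, and USP18 both removes it and silences the type I receptor. Isg15 (ENSMUSG00000035692) measured 3.52, 6.55, 3.04, 6.01 and 3.89 CPM in PBS and 3.09, 3.40, 5.69, 5.45 and 3.22 in CNP. In each group 2 libraries lay above 5 CPM and 3 below 4. The fold change was -0.17 (95% interval -0.77 to 0.43). Usp18 had 3.69 ± 1.34 and 3.01 ± 0.768 CPM (-0.33, SE 0.27). Trim25, a ubiquitin ligase that acts on RIG-I, had 0.15 (SE 0.19). Dtx3l and Parp9, partners in a ubiquitin ligase complex, had 0.12 (SE 0.34) and 0.28 (SE 0.30), and Parp14 had 11 counts in PBS and 10 in CNP.

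**Figure D3:**
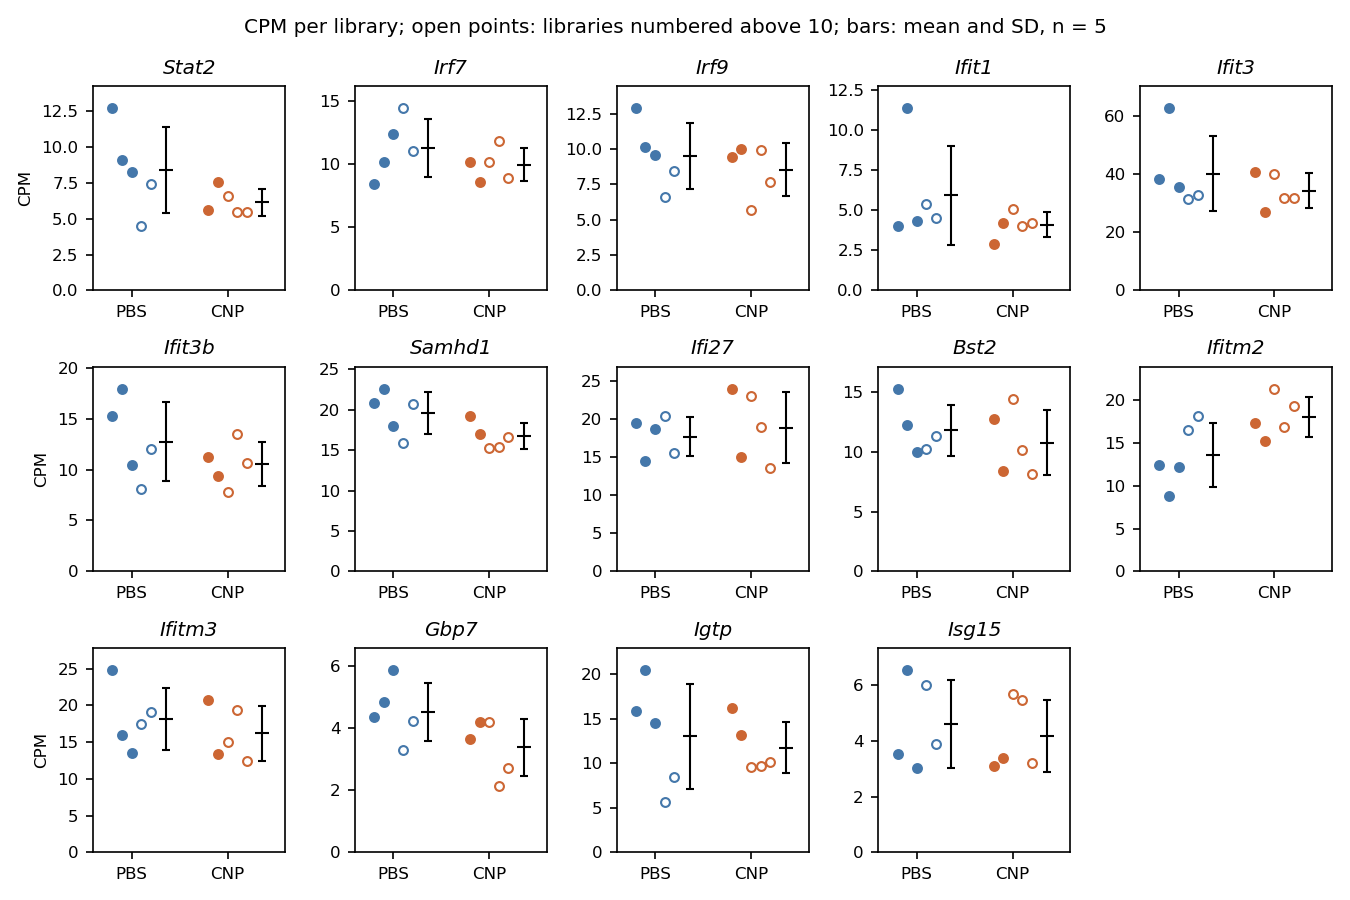
CPM of the 14 detected genes whose values are given library by library, in PBS (blue) and CNP (orange); open points are libraries numbered above 10, and bars show the mean and SD (n = 5). PBS 6 stands alone at 62.7 CPM for Ifit3 and 11.4 CPM for Ifit1, and the groups overlap in every panel.

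The wider pathway was read from lists of genes outside the set. All 10 interferon ligand genes looked at, among them Ifnb1, Ifng and Ifna4, had 0 counts in every library, with the same limit of 0.0677 CPM for each. The receiving machinery was present. Of 9 receptor and kinase genes 7 were tested, 0 passed, and 5 had values above and 2 below 0. At an unadjusted p under 0.05 by edgeR there was 1 of these 7, beside 1.19% of all genes. The other pathway lists, with 8, 3 and 9 tested genes, held 0. The 1 gene was the kinase gene Jak2, named after its values were seen. It had 2.18 ± 0.728 CPM in PBS and 3.28 ± 0.599 in CNP (0.59, SE 0.25, edgeR adjusted p = 0.9999). Ifngr1, the ligand-binding chain of the interferon gamma receptor, had 96.7 ± 11.9 CPM in PBS and 97.1 ± 3.96 in CNP, and the kinase gene Jak1 73.7 ± 12.5 and 77.9 ± 8.94. Of 10 further transducers and regulators 8 were tested and 0 passed, with 6 below 0. Pias1, an inhibitor of STAT signalling, had -0.14 (SE 0.10), and the phosphatase gene Ptpn2 0.19 (SE 0.13).

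Upstream sensing genes gave 3 tested of 12, with 0 passing, 1 value above 0 (0.42) and 2 below. Tbk1, the kinase that activates IRF3, had -0.02 (SE 0.13), and the adaptor gene Myd88 -0.12 (SE 0.18). Among 46 further interferon-stimulated genes 42 had counts and 9 could be tested; 6 were above and 3 below 0, with a median of 0.03, and 0 passed. The 2 most abundant, Shisa5 and the immunoproteasome gene Psmb10, had 0.03 (SE 0.21) and 0.10 (SE 0.13). The median of this second list rests on 9 of its 46 genes, with values from -0.35 to 0.16.

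Several of the genes differed by library number. Because the division at 10 was chosen with earlier results of these data known, the p-values for it are descriptive. With both terms in 1 edgeR fit, 7 of 27 genes (25.9%) passed between libraries numbered above 10 and up to 10, beside 31% of all genes, so the share was no higher than the background. Of these 6 were lower above 10 (22.2%, beside 16.7% of all genes) and 1 was higher (3.70%, beside 14.4%). Values below 0 were found for 22 of 27 (81.5%, beside 52.5% of all genes), with a median of -0.19, beside -0.02 for all genes. The sets did not overlap, with the values above 10 lower, for 4 genes (14.8%, beside 10.8%), and with the values above 10 higher for 0 (beside 9.82%).

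Those 4 genes were Adar, Ifit2, Igtp and Usp18. Adar held 9.90, 12.4, 10.2, 10.2 and 10.0 CPM in PBS 2, PBS 6, PBS 10, CNP 4 and CNP 8, and 6.31, 5.83, 5.09, 4.03 and 6.43 CPM in PBS 14, PBS 18, CNP 12, CNP 16 and CNP 20 (log2 fold change -0.90, SE 0.17, edgeR adjusted p = 0.00132). In the same order of libraries, Ifit2 held 6.04, 7.06, 5.43, 5.27 and 5.00 CPM and then 3.01, 1.62, 4.79, 2.61 and 1.98 (-1.03, SE 0.26, edgeR adjusted p = 0.00785). Both drops were present in PBS and in CNP libraries. For Igtp, given above by library, the fold change was -0.89 (SE 0.18, edgeR adjusted p = 0.00211). Usp18 held 5.37, 4.48, 3.91, 4.18 and 3.20 CPM up to 10 and 2.10, 2.59, 2.10, 2.84 and 2.72 above (-0.72, SE 0.23, edgeR adjusted p = 0.0243). Oasl2 (-0.66) and Dtx3l (-0.79) also fell, and Ifitm2 rose (0.42). Adar, Ifit2 and Igtp passed without any 1 library, while the count of genes that passed was 4 without PBS 2, 4 without PBS 6, 3 without PBS 14 and 3 without PBS 18. The share of all genes that passed was then 25.7%, 26.3%, 19.8% and 25.3%, so it was lower in these fits too.

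Markers of cell types were read by library number in the same fit. All 5 rod markers were higher above 10 by the same test, beside 14.4% of all genes. They summed to 53045 to 71206 CPM above 10 and 40127 to 46981 up to 10. Of these, Gnat1 held 6175 to 8807 CPM, against 4708 to 6714, with a log2 fold change of 0.38 and an edgeR adjusted p of 0.0284. Pigment epithelium markers summed to 835 to 1446 CPM above 10 and 300 to 764 up to 10, with 5 of 6 tested genes higher, beside 14.4% of all genes. Lower above 10 were 2 of 5 Müller glia markers, 1 of 11 tested microglia markers and 2 of 8 tested endothelial markers, beside 16.7% of all genes. The endothelial markers had sums of 76 to 118 CPM above 10 and 112 to 144 up to 10. The part of these cell types in the values of the interferon-stimulated genes was not tested.

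**Figure D4:**
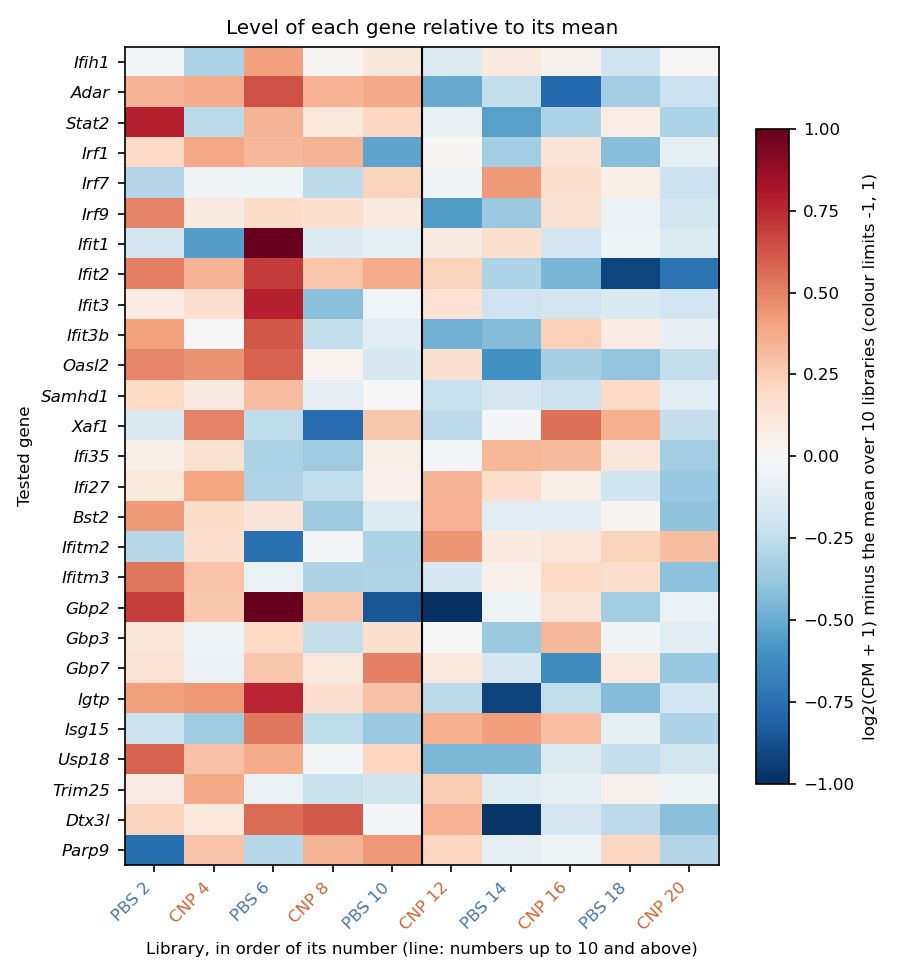
Log2(CPM + 1) of each tested gene minus its mean over 10 libraries, with libraries in order of their number (blue names PBS, orange names CNP) and a line between 10 and 12. Adar and Igtp are red in the 5 libraries left of the line and blue in the 5 right of it, Ifit2 is blue right of the line except in CNP 12, and PBS 6 is deep red for Ifit1 and Ifit3.

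**Figure D5:**
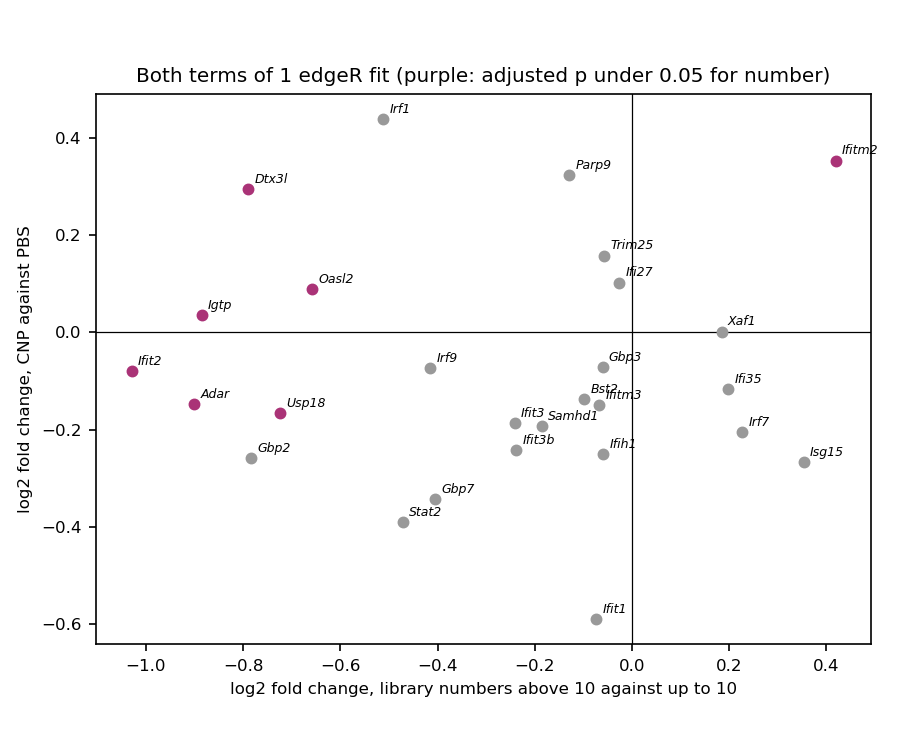
Log2 fold change for library number (above 10 against up to 10) and for treatment (CNP against PBS) of the 27 tested genes, from 1 edgeR fit holding both terms. The 7 purple genes passed for library number, from Ifit2 at -1.03 to Ifitm2 at 0.42, and none passed for treatment.

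The genes varied together only loosely. The median Pearson correlation over the 351 pairs of tested genes was 0.18 across the 10 libraries, beside 0.00 for all pairs of tested genes, and 0.11 after the mean of each number set was subtracted. These values are a description over the same 10 libraries, in which depth and library number are shared. None of the 351 pairs passed by permutation after adjustment over all of them. Of the 5 pairs with the highest coefficients, Igtp with Usp18, Irf9 with Usp18, Oasl2 with Igtp and Ifit2 with Oasl2 each contain a gene whose number sets do not overlap. No pooled coefficient is given for them, and with 5 libraries in each set none is given within a set. For the remaining pair, Ifih1 with Ifit1, Pearson's r was 0.81 (permutation p = 0.0101, adjusted 0.257) and Spearman's coefficient 0.49 (permutation p = 0.155, adjusted 0.541). It fell to -0.10 without PBS 6 and CNP 4 and so rests on those libraries. At the other end, Ifih1 and Ifitm2 had r = -0.75 (permutation p = 0.0136, adjusted 0.257) and a Spearman coefficient of -0.71 (permutation p = 0.0267, adjusted 0.287), with r = -0.57 without the same libraries. Ifitm2 with Usp18, the next lowest pair, holds Usp18 and is not pooled.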

How the data were processed

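Per the labels' protocols, poly(A) RNA was copied to full-length cDNA from primers bearing a barcode and a unique molecular identifier (UMI), amplified and sequenced. STAR and STARsolo with build GRCm39 are named, per the submitters' processing notes, with versions, annotation, strand setting and UMI collapsing not given in the sources used here. Uncollapsed UMIs would make the true counting error larger. Raw counts were deposited as 1 table for 57186 genes in 10 libraries; 22756 genes had a count. Columns were matched by library name and groups by title. Ensembl IDs were paired with symbols for 51880 genes; the rest held 0.881% of counts. Promoters and exon lengths come from GRCm38 annotation, matched by name. The 20 pairs of libraries within groups differed by a chi-square per degree of freedom of 3.99 to 32.6, so none was a duplicate.

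The 11499 genes passing filterByExpr (minimum count 10, minimum total 15) were scaled by TMM and tested with edgeR 4.0.16's quasi-likelihood test (R 4.3.3, two-sided) at a Benjamini-Hochberg adjusted p of 0.05 over all of them. Log2 CPM used a prior count of 2. Correlations used 100000 permutations. The scripts were tested on simulated counts. Alternatives were DESeq2 1.42.0, limma-voom (limma 3.58.1), other scalings, no filter, library number as a term and each library left out. Values by library are given for the 8 tested genes of highest mean CPM, the 5 of smallest p, and Isg15, Ifit1, Ifit3, Irf7, Stat2, Irf9 and Mx1. The genes, lists and the division by library number were chosen with earlier results of these data known. Some items are not reported here.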

Additional observations from a re-analysis of the deposited data

Results flagged for a closer look

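In 2 of 54 groups of 5 libraries (27 genes in 2 treatments), 1 library stood farther from its neighbours than Dixon's test allows at 95%. Both flags concern PBS 6. Chance flags about 1 in 20 groups, or 2.7 of 54. Ifit1 measured 11.4 CPM in PBS 6 and 4.03 to 5.41 CPM in the other PBS libraries. Ifit3 measured 62.7 CPM there and 31.3 to 38.4 CPM in the others.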

How the results depend on the processing

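No gene of the set passed between CNP and PBS under any of 16 alternatives, and the count over all genes stayed at 0. Of 432 fold changes recomputed, 414 kept their direction; 15 turned when 1 library was left out and 3 otherwise. Xaf1 was -0.078 with limma-voom, and with library number as a term Oasl2 was 0.089 and Igtp 0.036. With 1 library left out, the log2 fold change ran from -0.074 to 0.37 for Dtx3l, -0.20 to 0.0059 for Gbp3, -0.0076 to 0.19 for Ifi27, -0.19 to 0.0016 for Ifi35, -0.35 to 0.048 for Igtp, -0.29 to 0.025 for Isg15, -0.19 to 0.13 for Oasl2 and -0.18 to 0.24 for Xaf1. Among genes that kept their direction, the value nearest 0 was -0.067 for Irf7 (without PBS 14), -0.15 for Usp18 (without PBS 2), -0.18 for Adar and -0.12 for Ifih1 (both without PBS 6), 0.061 for Parp9 (without PBS 2) and 0.025 for Trim25 (without CNP 4). The cause was not tested. Leaving out a library also moved values away from 0, as far as -0.63 for Stat2 and -0.29 for Samhd1 (both without PBS 14) and -0.72 for Ifit1 (without PBS 2). Without PBS 14, 4 of 28 tested genes had an unadjusted p under 0.05 by edgeR, beside 301 of 11718 genes, and 0 passed after adjustment. The median fold change ran from -0.23 to -0.10. The median pairwise correlation was 0.14 with Spearman's coefficient, 0.25 among the 11 genes of at least 10 CPM, 0.11 with number set means subtracted and 0.10 to 0.22 with 1 library left out. The 10 CPM limit, chosen after seeing the data, replaces 20 CPM, which left 1 gene. Genes passing for library number ranged from 3 to 8 with 1 library left out, an alternative also added after seeing the data. The share of all genes moved too, from 19.8% without PBS 14 (3 of 28 genes of the set) to 33.2% without PBS 10 (8 of 28). No paired analysis was possible because the groups share no library numbers. At these depths a count of 0 in 1 library allowed 0.553 to 0.901 CPM, and the low-count filter left 13 genes out of the test.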

Other observations

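Without the low-count filter 39 of the 40 genes could be fitted, and 3 had an unadjusted p under 0.05 by edgeR, beside 1.85% of all 22756 genes (422), none after adjustment. They were Ifitm2, Stat2 and Iigp1, an immunity-related GTPase named here after its values were seen. Iigp1 had a log2 fold change of -1.14 (SE 0.53, edgeR adjusted p = 0.928) on 24 counts in PBS and 10 in CNP, with 1.72 CPM in PBS 6 as the highest library and 0.247 CPM in CNP 20 as the lowest. Of the 9 tested genes of the second list of interferon-stimulated genes, Shisa5 alone passed between library numbers, where 31% of all genes passed; it was lower above 10 (log2 fold change -0.60, SE 0.13, edgeR adjusted p = 0.0038). Of the 8 tested transducers outside the set Stat3 alone passed, again beside 31% of all genes (-0.48, edgeR adjusted p = 0.019).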
